A study of Mus musculus with 16 samples.

Results

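The genes described here encode the contractile proteins of the heart muscle sarcomere. They are Myh6, Myh7, Myl2, Myl3, Myl4, Myl7, Tnnt2, Tnni1, Actc1 and Mybpc3, chosen by name, and all 10 were found among the 29453 genes of the count matrix. They were followed in 37841 single cells of chimeric mouse embryos collected on embryonic day 7.5 (E7.5) and on the days E8.5 and E9.5, of which 588 carried 1 of the 4 cardiomyocyte labels, FHF 1, FHF 2, SHF 1 and SHF 2, named after the first and the second heart field. The embryos were made by injecting Stat3 null embryonic stem cells (ESCs), labelled with a constitutive tdTomato reporter, into wild-type (WT) CD1 blastocysts, and whole embryos were dissociated and sorted on tdTomato. The null group holds tdTomato-positive donor cells in which part of Stat3 was replaced by a resistance cassette. The WT group holds tdTomato-negative host cells of the same chimeric embryos, so that every WT cell had also developed beside null cells. The host cells did not come from a cultured line and carried no transgene, and the donor cells came from a transfected line picked as colonies, so genotype and donor origin cannot be told apart. The labels give about 10 embryos in a pool at E7.5, about 4 at E8.5 and 1 at E9.5, with 2 WT and 2 null libraries at E7.5, the same at E8.5, and 4 of each at E9.5. The study classed its E7.5 embryos as large or small when pooling them, and the library names carry no size class.

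A library held 360 to 4327 analysed cells and 5 to 124 cardiomyocytes. Counts were 3′ transcript ends with molecular identifiers (UMIs), given here as counts per 1000000 UMIs (CPM) of the cells summed. The CPM of Stat3 over all cells was 6.14 to 9.31 in the WT libraries and 1.16 to 2.53 in the null libraries; the counted transcript ends lie downstream of the replaced part, so this level does not check the deletion itself. Libraries of a stage and genotype are lettered A to D in the order of their names, and a letter pairs no samples. The study's methods speak of fewer E9.5 embryos than there are E9.5 libraries of a genotype, so these libraries cannot be read as separate embryos, and an n of 4 counts libraries. P-values therefore measure only the spread between libraries, which may be technical. The E9.5 WT libraries C and D shared 292 cell barcodes, 15.3% of those of WT C, while other pairs of libraries shared at most 8. Of these 292, 10 had the same cell type in both libraries, and 1 cardiomyocyte of WT C and 6 of WT D were among them.

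A sarcomere shortens when the heads of thick-filament myosin pull on thin filaments of actin. Each cardiac myosin has a pair of heavy chains, and each heavy chain carries 1 essential and 1 regulatory light chain. Calcium controls contraction through the troponin complex on the thin filament. In the embryo, these proteins first assemble in the cardiac crescent and the early heart tube, and several exist as paired isoforms that later mark atrium or ventricle. Myh6 encodes the α-myosin heavy chain and Myh7 the β-myosin heavy chain. Myl7 and Myl4 encode the regulatory and the essential light chain that become typical of the atrium, and Myl2 and Myl3 their ventricular counterparts. Tnnt2 encodes cardiac troponin T, and Tnni1 encodes slow skeletal troponin I, the troponin I isoform of the embryonic heart. Actc1 encodes cardiac α-actin and Mybpc3 cardiac myosin-binding protein C, which sits along the thick filament.

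The members separated the cardiomyocyte labels into a pair with high levels (FHF 2 and SHF 2) and a pair with low levels (FHF 1 and SHF 1). At E8.5, the 10 members made up a median of 4.53% of the UMIs of an FHF 2 cell, with a range over cells of 2.09% to 8.96%, and 5.91% of an SHF 2 cell, with a range of 2.15% to 8.89%. The median was 0.889% in SHF 1 and 0.124% in FHF 1, the latter close to the 0.134% of epicardium. All 69 FHF 2 cells and all 57 SHF 2 cells at this stage were above 1%, against 29 of 64 SHF 1 cells and 7 of 87 FHF 1 cells. Of 37841 analysed cells in the series, 273 were above 1%, of which 269 were cardiomyocytes and 4 were epicardium at E9.5. The labels had been assigned from expression, so that differences between types are descriptions and were not tested.

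The markers of the label check set the same pair apart. Nkx2-5, a transcription factor of heart progenitors and cardiomyocytes, had a UMI in 100% of FHF 2 cells and 98.2% of SHF 2 cells at E8.5, against 80.5% of FHF 1, 75% of SHF 1, 5.26% of epicardium and 0% of hindbrain neural progenitors. Actn2, which encodes the α-actinin of the Z-disc, had a UMI in 94.2% of FHF 2 and 89.5% of SHF 2 cells but in 3.45% of FHF 1 and 18.8% of SHF 1 cells. The labels FHF 1 and SHF 1 therefore cover mostly Nkx2-5-positive cells, of which most had no Actn2 UMI. Other markers of the check were found there more often. Ttn had a UMI in 73.6% of FHF 1 and 81.25% of SHF 1 cells, Tnnc1 in 33.3% and 62.5%, and Ryr2 in 48.3% and 84.4%. Nppa had a UMI in 3.45% and 7.81%. In FHF 2 and SHF 2, Ttn and Tnnc1 had a UMI in 100% of cells. These percentages are without thinning. At E9.5, Nkx2-5 was found in 46.6% of FHF 1 cells and 68.4% of SHF 1 cells, and 21 of the 260 cardiomyocyte-labelled cells of that stage carried UMIs of the skeletal muscle factors Myog, Myf5 or Myod1. Of these 21 cells, 18 were labelled FHF 1 and 3 SHF 1, none was FHF 2 or SHF 2, and 1 had an Nkx2-5 UMI, against 169 of the other 239. They carried Actc1 at 2977 CPM, Tnnt2 at 994 and Tnni1 at 618, but Myl7 at 15.2 CPM and Mybpc3 at 0. Several results at E9.5 that touch FHF 1 and SHF 1 are therefore also given without them.

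**Figure D1:**
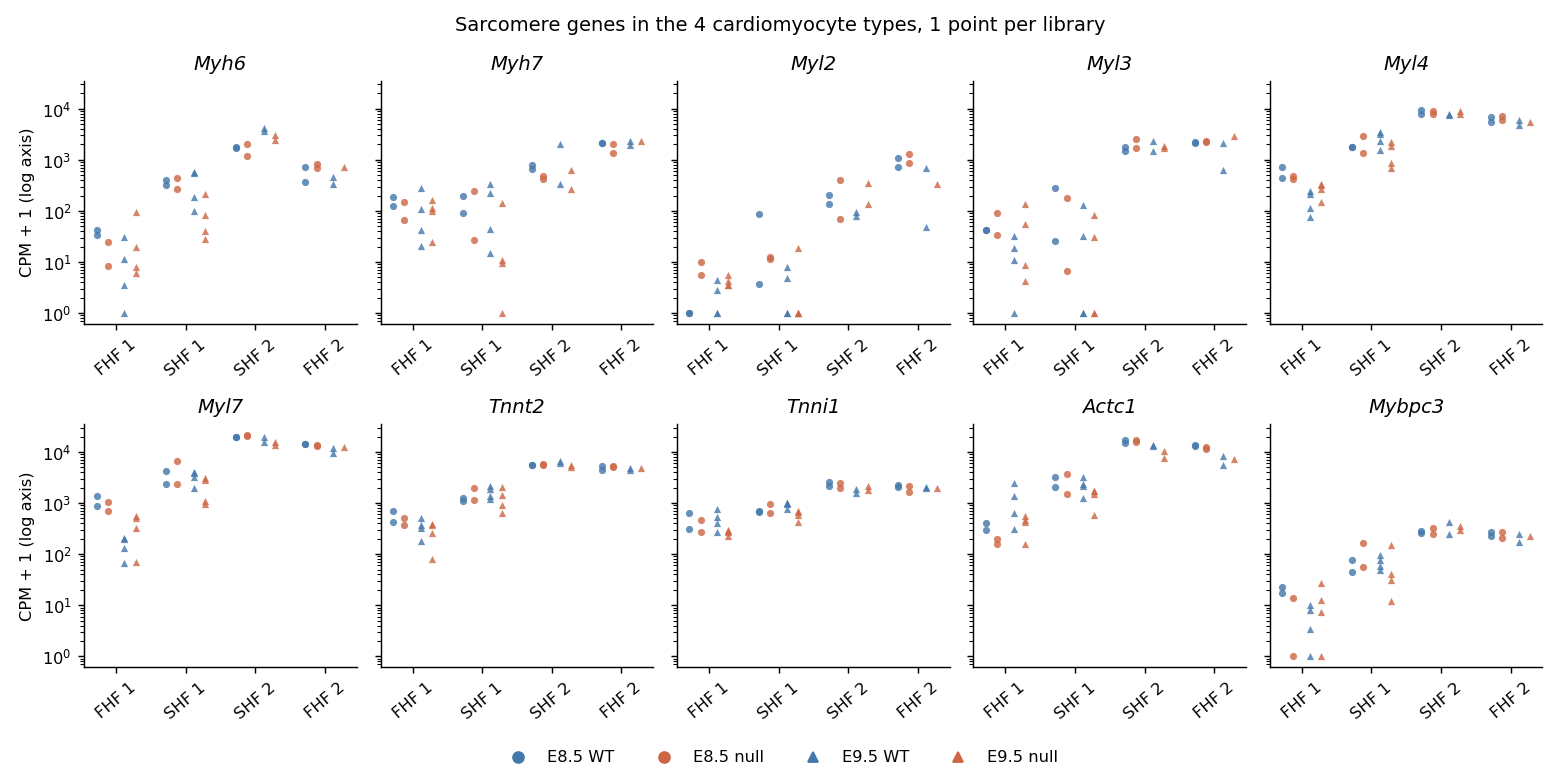
CPM of each of the 10 members, plotted as CPM + 1 on a log axis, in the 4 cardiomyocyte labels, with 1 point per library (circles E8.5, triangles E9.5, blue WT, red null). FHF 2 and SHF 2 have higher means than FHF 1 for every member at E8.5, as for Myl7 with means of 13731 and 20543 against 996 CPM.

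The heavy chains were distributed in opposite ways over FHF 2 and SHF 2. Over the 4 libraries at E8.5, Myh6 reached 1692 ± 377 CPM (mean ± SD, n = 4) in SHF 2 and 651 ± 199 in FHF 2. In FHF 2 it was 365 and 731 in the WT libraries A and B and 824 and 684 in the null libraries A and B, and in SHF 2 it was 1735 and 1780 in WT and 2078 and 1175 in null. Each SHF 2 value was thus above each FHF 2 value. Myh7 was higher in FHF 2, at 1903 ± 369 CPM, than in SHF 2, at 588 ± 161. Its FHF 2 levels were 2125, 2105, 2029 and 1353 in WT A, WT B, null A and null B, and its SHF 2 levels were 782, 656, 489 and 426, without overlap. In SHF 1, Myh6 was 361 ± 77.3 and Myh7 139 ± 99.1 CPM, while FHF 1 held Myh6 at 26.1 ± 14.5 and Myh7 at 132 ± 51.5.

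The share of Myh7 in the sum of Myh6 and Myh7 puts the pair on 1 scale within a library. In FHF 2 at E8.5 it was 85.3% and 74.2% in WT and 71.1% and 66.4% in null, and in SHF 2 it was 31.1% and 26.9% in WT and 19.1% and 26.6% in null. The genes lie in a row on the minus strand of chromosome 14, Myh6 at chr14:54941921-54966927 and Myh7 at chr14:54970684-54994626 in GRCm38, with 3756 bases between them. They share 145 stretches of 50 bases in the last 300 bases of their transcripts, 22.3% of those of Myh6 and 18.8% of those of Myh7, so some of their reads could be assigned to neither or to the wrong gene. No other member shared such a stretch with another.

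Among the light chains, Myl2 differed most between FHF 2 and SHF 2 in ratio. It was 1086, 714, 1294 and 868 CPM in the FHF 2 cells of WT A, WT B, null A and null B at E8.5, and 134, 209, 408 and 68.7 in their SHF 2 cells. The means were 991 ± 254 and 205 ± 147 CPM, and Myl2 was near 0 elsewhere, with 27.3 ± 38.4 in SHF 1 and 3.41 in FHF 1. With every cell thinned to 10000 UMIs, 87.0% of FHF 2 cells and 42.1% of SHF 2 cells held a Myl2 UMI, against 10.9% of SHF 1 and 2.30% of FHF 1. The atrial counterpart Myl7 ran the other way, at 20543 ± 608 CPM in SHF 2 and 13731 ± 639 in FHF 2, with 3836 ± 1979 in SHF 1, 996 ± 293 in FHF 1 and 492 ± 203 (n = 3) in epicardium. As a share of Myl2 and Myl7 together, Myl2 was 7.11% and 4.82% in WT FHF 2, 9.18% and 5.90% in null FHF 2, and 0.328% to 1.89% in SHF 2.

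The essential light chains differed less between these labels. Myl3 was 2227 ± 103 CPM in FHF 2 and 1904 ± 486 in SHF 2, and the libraries overlapped, with 2100 to 2342 and 1509 to 2614. Myl4 was 8545 ± 722 in SHF 2 and 6467 ± 765 in FHF 2. Myl4 was also found in epicardium at 782 ± 208 CPM (n = 3), above the 513 ± 143 of FHF 1, and 75.4% of epicardial cells held a Myl4 UMI after thinning.

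The thin-filament genes and Mybpc3 were likewise highest in FHF 2 and SHF 2. Actc1 reached 16223 ± 1098 CPM in SHF 2 and 12642 ± 1011 in FHF 2, against 2591 ± 1006 in SHF 1 and 262 ± 108 in FHF 1, a level also reached by epicardium (272) and allantois (257). Tnnt2 followed the same order, from 5607 ± 179 in SHF 2 through 4968 ± 422 in FHF 2 and 1367 ± 436 in SHF 1 to 505 ± 143 in FHF 1. Tnni1 was the most even of these, with 2293 ± 273, 2047 ± 292, 732 ± 138 and 424 ± 168 CPM in the same order, and the libraries of SHF 2 and FHF 2 overlapped. Tnni1 was also the member found in most FHF 1 cells, with 82.8% of them after thinning, ahead of Myl7 with 71.3%, Actc1 with 37.9%, Myh7 with 35.6% and Myh6 with 9.20%. Mybpc3 was 279 ± 34.4 in SHF 2, 244 ± 32.1 in FHF 2, 85.2 ± 55.4 in SHF 1 and 12.8 in FHF 1. In hindbrain neural progenitors, taken as a type without a sarcomere, 10.0% of thinned cells held a Myl7 UMI, 5.71% an Actc1 UMI and at most 2.86% a UMI of any other member, at a median depth of 20132 to 25179 UMIs per cell over these types.

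**Figure D2:**
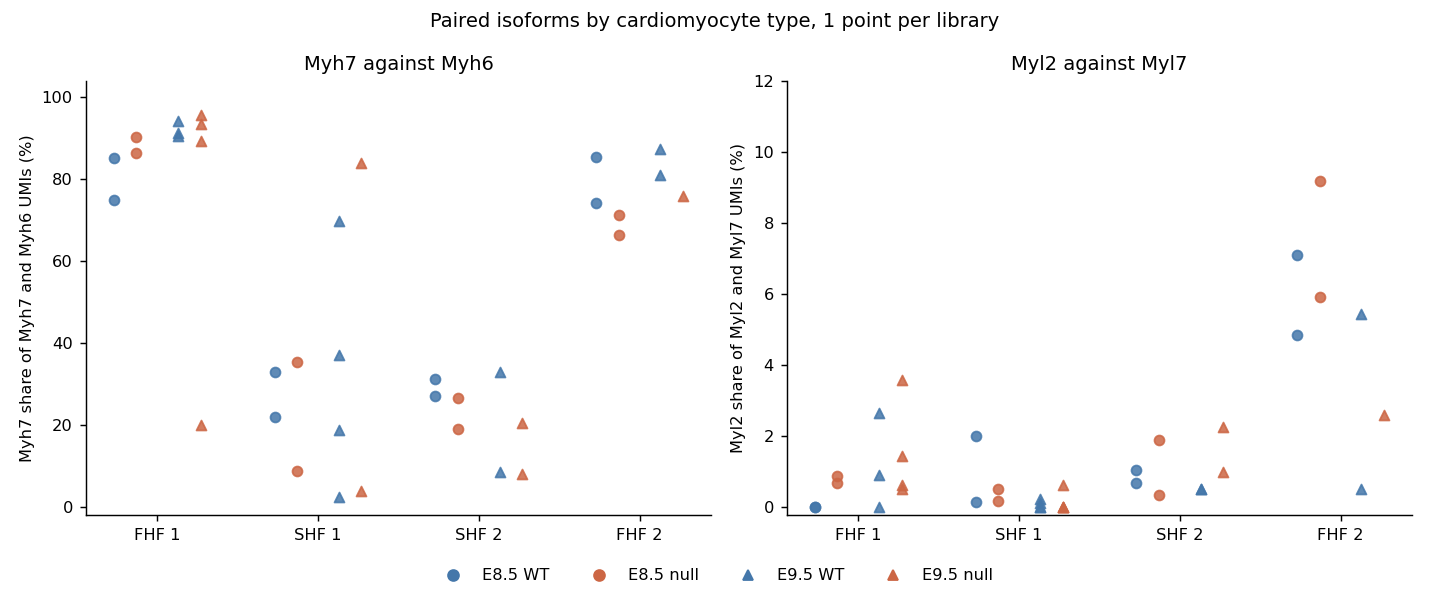
Myh7 as a percent of Myh6 and Myh7 UMIs, and Myl2 as a percent of Myl2 and Myl7 UMIs, by cardiomyocyte label, with 1 point per library and sums of under 20 UMIs left out. At E8.5 the Myh7 share lies between 66.4% and 85.3% in FHF 2 and between 19.1% and 31.1% in SHF 2.

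The promoters of the members are shown where they share a sequence element that muscle genes are known for. The CArG box, bound by serum response factor, was looked for on both strands of the 250 bases before each transcript start in RefSeq (GRCm38.p6), where all 10 members had an entry. It was found in Actc1, Myl3 and Myl7, 3 of 10 members, against 1.47% of 32851 promoters of the same length. Counted by gene, it was in 1.62% of 27025. The stretches from 150 to 36 bases before the start are printed 5′ to 3′ on the strand of the gene, at chr2:114052911-114053025 (minus strand) for Actc1, chr9:110763528-110763642 (plus strand) for Myl3 and chr11:5898818-5898932 (minus strand) for Myl7, with the CArG box in capitals.
Actc1: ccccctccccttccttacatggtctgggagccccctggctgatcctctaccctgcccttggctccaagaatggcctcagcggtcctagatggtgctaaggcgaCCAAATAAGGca
Myl3: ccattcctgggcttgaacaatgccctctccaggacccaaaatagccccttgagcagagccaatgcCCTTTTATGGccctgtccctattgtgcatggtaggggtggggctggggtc
Myl7: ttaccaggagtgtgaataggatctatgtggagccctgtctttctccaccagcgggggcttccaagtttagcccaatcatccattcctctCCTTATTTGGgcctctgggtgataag
The box begins 47 bases before the start of Actc1, 85 before that of Myl3 and 61 before that of Myl7. The M-CAT element CATTCC, a site of TEAD factors, was present in the promoters of Myh6, Myh7, Myl3, Myl7 and Tnnt2. It was in 12.6% of all promoters and 14.4% of genes. AGATAA, a form of the GATA site, was in those of Myl2 and Tnnt2, in 9.99% of all promoters and 11.4% of genes. A MEF2 site was found in Mybpc3, against 0.508% of all promoters and 0.592% of genes. TTCNNNGAA, the element STAT factors bind, was in none of the 10 windows, in 7.02% of all promoters and in 8.13% of genes. This says only that these letters are not in this stretch. A match is a description of the sequence and not a measured site.

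At E7.5, before a beating heart tube, the 51 cardiomyocyte-labelled cells already held Myl7. In FHF 1, the label of 47 of them, Myl7 was 276 and 463 CPM in the WT libraries and 487 and 301 in the null libraries. After thinning, 46 of these 47 cells, 97.9%, held a Myl7 UMI (exact 95% interval 88.7% to 99.9%), against 29.8% for Tnnt2, 21.3% for Myl4 and 2.13% each for Myh6, Myh7 and Myl2. Actc1 was 0 in both WT libraries and 11.8 and 6.54 CPM in the null libraries, and Myl3 and Mybpc3 were at 0 in all 4. Myl7 was thus found in nearly every such cell, and each heavy chain in 1 of 47. Myl7 was not limited to this label. Its mean was 382 CPM in FHF 1, 296 in embryo proper endothelium and 220 in cardiopharyngeal progenitors of the second heart field, with a median of 21.1 over 27 types. The remaining 4 of the 51 cells were labelled SHF 1, of which 3 had members above 1% of their UMIs. They lay in WT A and null A, and with them Actc1 was 268 and 211 CPM in those libraries.

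Low levels of single members were also measured outside the heart. Myl3 was 151 ± 45.3 CPM in midgut and 110 ± 30.1 (n = 3) in gut tube at E8.5, beside 124 ± 133 in SHF 1, and 56.6% of midgut and 55.8% of gut tube cells held a Myl3 UMI after thinning. Myh7 was found in the thyroid primordium at 26.7 ± 13.3 CPM, in 21.2% of thinned cells, and in gut tube at 18. These are types of endodermal origin. Tnni1 was found in blood types, at 215 ± 133 CPM (n = 3) in megakaryocyte progenitors and 193 ± 98.9 (n = 3) in the type labelled MEP. In MEP, Mybpc3 was 26.1 ± 9.58 CPM (n = 3), above the 12.8 of FHF 1. The median over the 70 types of E8.5 ran from 0.58 CPM for Mybpc3 to 9.11 for Myl7. Counted over doublets as well, members above 1% of UMIs were found in 45 of 3395 removed doublets (1.33%), against 0.721% of the analysed cells.

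The genotype comparison asks whether null cardiomyocytes built the sarcomere program to the level of their WT neighbours. At E8.5, with the 4 labels summed per library, none of the 10 members passed the test (edgeR quasi-likelihood test with Benjamini-Hochberg adjustment over all genes), where a call needs an adjusted p under 0.05 and a log2 fold change past 1 in either direction. Among 8515 genes tested, 0.0117% were called, and 357 had an unadjusted p under 0.05, among them 3 members. DESeq2 called none of the members either. The log2 fold change of null over WT was below 0 for 9 of the 10, with a median of −0.19 beside 0.00 for all genes tested.

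Myh7 had the lowest p of the 10. Its level was 752.2 and 901.4 CPM in WT A and B and 632.7 and 513.8 in null A and B. Neither null library reached a WT library, and the log2 fold change was −0.53 (SE 0.13, 95% interval −0.80 to −0.25, edgeR adjusted p = 0.381). Actc1 was 7218 and 8681 in WT and 6161 and 6255 in null, again without overlap, at −0.35 (interval −0.59 to −0.11, edgeR adjusted p = 0.878). Tnni1 was 1463 and 1352 against 1079 and 1196, at −0.30 (interval −0.55 to −0.05). Myl7, Myl4 and Mybpc3 also did not overlap, with the null libraries lower, while Myh6, Myl2, Myl3 and Tnnt2 did. With 2 libraries a group, the smallest possible exact permutation p is 0.333, and the share of all tested genes without overlap was not counted. Myl2, the only member with a positive value, was 288.1 and 297.1 in WT and 408.6 and 236.2 in null, and its interval of −0.31 to 0.61 spanned 0.

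These sums mix labels with very different levels, and the mix differed between libraries. FHF 2 and SHF 2 together were 41.3% and 50.8% of the cardiomyocytes in WT A and B at E8.5, and 42.4% and 39.0% in null A and B. As a share of cardiomyocyte UMIs the members were 2.73% and 3.02% in WT and 2.46% and 2.40% in null. In FHF 2 and SHF 2 alone, the members summed to 52325 and 50276 CPM in WT and 50316 and 50148 in null. The median log2 fold change of the 10 was there 0.05, 7 of the 10 were above 0, and no gene was called, 0% of 6146, with 259 genes at an unadjusted p under 0.05. For Myl7 the fold change within the pair was 0.01 (interval −0.22 to 0.23) and for Actc1 −0.07 (−0.30 to 0.16), where it had been −0.22 and −0.35 over all 4 labels. The labels were assigned from expression, and all FHF 2 and SHF 2 cells at E8.5 had members above 1% of their UMIs. A null cell with low levels could thus carry another label, so like levels within the pair cannot show like levels over all cardiomyocytes. Whether the mix of labels accounts for the values over the 4 labels was not tested.

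Myh7, Myl2 and Myl3 had the fold changes farthest from 0 within FHF 2 and SHF 2. Myh7 was 1482 and 1549 CPM in WT and 1381 and 1025 in null, at −0.30 (interval −0.60 to 0.00), against −0.53 over the 4 labels. Myl2 was 630.2 and 520 in WT and 921.3 and 585.6 in null, at 0.44 (interval 0.07 to 0.81, the only member there with an unadjusted p under 0.05), with null B between the WT libraries, against 0.15 over the 4 labels. Myl3 was 2025 and 1873 in WT and 2373 and 2126 in null, at 0.24 (interval −0.03 to 0.51), with both null libraries above both WT libraries. The pair is itself a mix of labels with different Myh7 and Myl2 levels. FHF 2 and SHF 2 cells were 9 and 10 in WT A and 36 and 27 in WT B. They were 14 and 14 in null A and 10 and 6 in null B. The part of this mix in these values was not tested. In FHF 1 and SHF 1 alone, 9 members were tested and all 9 were below 0, with a median of −0.23 and no member called (0.0139% of all genes). The lowest of them was Myh6 at −0.62 (interval −1.05 to −0.20).

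**Figure D3:**
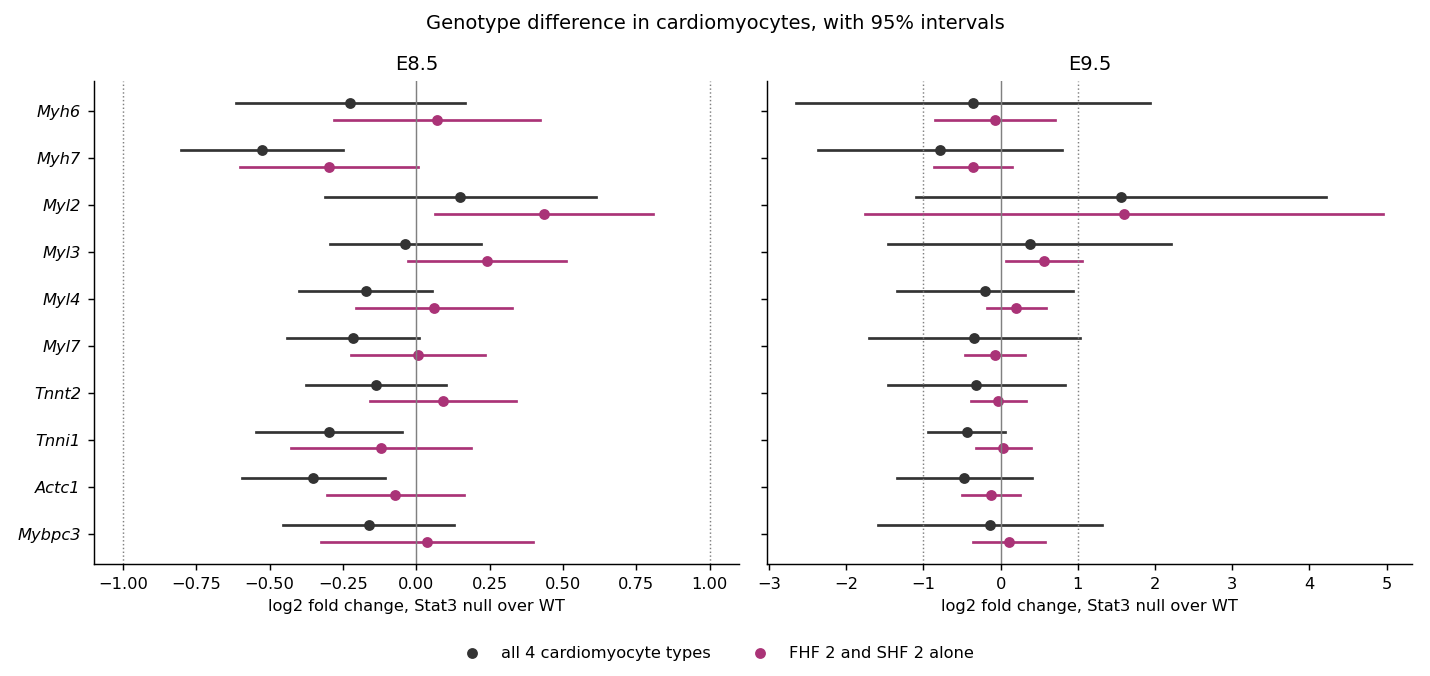
Log2 fold change of null over WT with its 95% interval for the 10 members at E8.5 and E9.5 (panels with different ranges), in all 4 cardiomyocyte labels summed (black) and in FHF 2 and SHF 2 alone (purple). Dotted lines mark the threshold of 1 in either direction, and within FHF 2 and SHF 2 the values of Myl7 are 0.01 at E8.5 and −0.07 at E9.5.

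At E9.5, none of the 10 members passed the test either, and none had an unadjusted p under 0.05 (0.0511% of 7827 genes called, 394 genes at p under 0.05 in edgeR). DESeq2 also called none. The median of the members was −0.33, with 8 below 0. The levels of the libraries were far apart within each genotype: Myl7 was 8506, 5463, 1412 and 5210.4 CPM in WT A to D and 5888, 4895, 2477 and 3091 in null A to D. The groups overlapped for all 10 members, WT C was the lowest WT library for each, and the interval of Myl7 was −1.71 to 1.02, against −0.44 to 0.01 at E8.5.

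The mix of labels, which had been assigned from expression, moved with these levels. FHF 2 and SHF 2 made up 36.4%, 37.5%, 0% and 36.2% of the cardiomyocytes in WT A to D, and 38.5%, 20.9%, 10.0% and 15% in null A to D. The members' share of cardiomyocyte UMIs was 2.59%, 1.79%, 0.636% and 1.73% in WT, and 1.85%, 1.62%, 0.862% and 1.09% in null. WT C, with no FHF 2 or SHF 2 cell, thus had the lowest share of all, and the null libraries C and D, with the next fewest, came after it. Within FHF 2 and SHF 2, where 3 WT and 2 null libraries had enough cells, the median of the members was 0.00, with 5 above and 5 below 0, and no member was called (0.0768% of all genes).

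**Figure D4:**
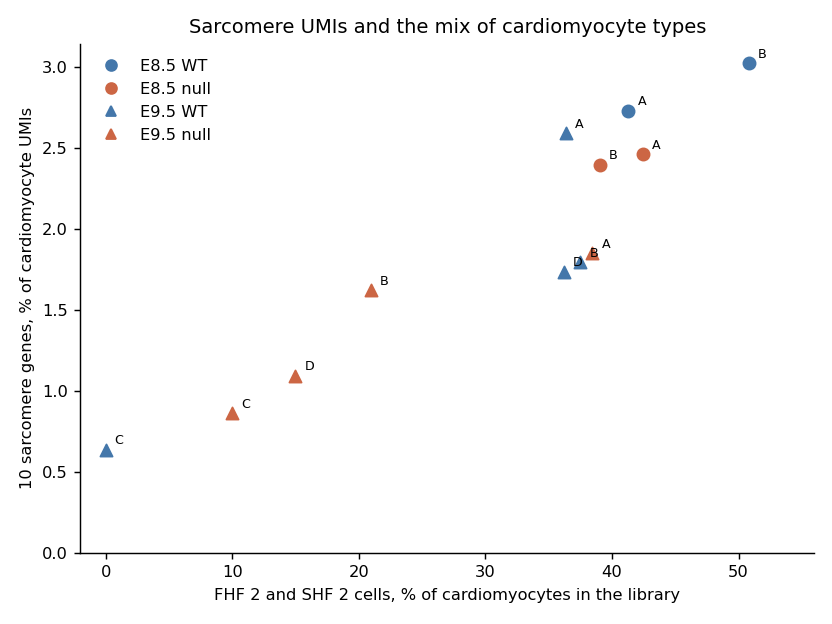
Members as a percent of all cardiomyocyte UMIs (vertical) against FHF 2 and SHF 2 as a percent of cardiomyocytes (horizontal), with 1 lettered point per library at E8.5 and E9.5. The E9.5 library WT C lies at 0% and 0.636%, and the E8.5 library WT B at 50.8% and 3.02%. The labels were assigned from expression, so the axes are not independent.

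Myl2 had the largest fold change of the 10 at E9.5 and a wide interval. Its level over the 4 labels was 33.34, 12.57, 2.467 and 131 CPM in WT A to D and 129.8, 239.6, 10.67 and 246.1 in null A to D. WT D lay with the null libraries, null C with the WT libraries, and the log2 fold change was 1.56 (SE 1.10, interval −1.10 to 4.22, edgeR adjusted p = 0.936). Leaving out single libraries gave 1.18 (without WT C) to 3.27 (without WT D), and keeping the WT-sorted cells with a tdTomato UMI gave 0.81. Within FHF 2 and SHF 2 it was 77.97, 29.52 and 376.8 in WT A, B and D and 341.1 and 794.2 in null A and B, at 1.60 (interval −1.75 to 4.95). FHF 2 and SHF 2 cells were 2 and 6 in WT A, 5 and 4 in WT B, 0 and 0 in WT C and 9 and 12 in WT D. In null A to D they were 8 and 12, 3 and 6, 0 and 2, and 2 and 1. Myl2 in FHF 1 and SHF 1 was at most 2.51 CPM in null D. The 246.1 CPM of that library thus came mostly from 2 FHF 2 cells and 1 SHF 2 cell. The part of this mix in the difference between genotypes was not tested. As a share of Myl2 and Myl7, Myl2 was 0.390%, 0.230%, 0.174% and 2.45% in WT and 2.16%, 4.67%, 0.429% and 7.37% in null. The means, 0.812% ± 1.10 and 3.66% ± 3.03 (SD, n = 4), did not pass an exact permutation test (p = 0.171, two-sided, smallest possible 0.0286, and 0.267 after adjustment over the 4 shares compared at this stage). The difference of 2.85 percentage points was 1.61 without null D and 3.92 without null C, and 2.86 (exact permutation p = 0.143) without the cells with skeletal muscle factors. Averaged over cells instead of summed, the share was lower in null, at 2.80% against 3.57% in WT.

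Myl3, its partner among the ventricular light chains, was 769.5, 355.4, 62.91 and 636.6 CPM in WT and 918.4, 667.1, 218.7 and 585.4 in null, at 0.38 (interval −1.46 to 2.21). Within FHF 2 and SHF 2 it was 1842, 974 and 1817 in WT and 2366 and 2221 in null. Both null libraries were above the WT libraries there, as at E8.5, and the fold change was 0.56 (interval 0.07 to 1.05, edgeR adjusted p = 0.999). As a share of Myl3 and Myl4, Myl3 was 16.9%, 9.54%, 6.32% and 19.6% in WT and 23.7%, 17.9%, 11.9% and 25.5% in null over the 4 labels (exact permutation test, p = 0.171, adjusted 0.267). Myh7 was 998.9, 425.4, 264 and 481 in WT against 581.8, 325.9, 83.23 and 262.4 in null over the 4 labels, at −0.79 (interval −2.37 to 0.79), and −0.36 (−0.87 to 0.15) within FHF 2 and SHF 2. Its share of the heavy chains was 38.4%, 36.3%, 83.6% and 40.1% in WT and 44.6%, 27.3%, 10.4% and 65.4% in null, with means of 49.6% ± 22.7 and 36.9% ± 23.6 (exact permutation test, p = 0.457). The difference of −12.7 percentage points was −1.34 without WT C, −3.83 without null C and −22.2 without null D, and −12.7 without the cells with skeletal muscle factors.

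Of the other members, Tnni1 had the narrowest interval at E9.5. It was 1112, 1156, 831.4 and 919.3 CPM in WT and 1009, 765.3, 474.8 and 732.9 in null, at −0.44 (interval −0.94 to 0.06). In FHF 2 and SHF 2 its fold change was 0.03 (interval −0.32 to 0.39), and in FHF 1 and SHF 1 −0.76 (SE 0.26, interval −1.36 to −0.15, edgeR adjusted p = 0.783), where no member was called (0.0532% of all genes). Without the cells with skeletal muscle factors this value was −0.71, and again no member was called (3 of 6936 genes). Actc1 was 5837, 3843, 2054 and 4276 in WT and 3766, 3284, 1865 and 2707 in null, at −0.47 (interval −1.35 to 0.40). Its value in FHF 1 and SHF 1, −0.93, was −0.52 once the cells with skeletal muscle factors were left out, cells that were 3, 1, 6 and 4 in WT A to D and 2, 0, 1 and 4 in null A to D. Leaving them out of the 4 labels gave a median of −0.35 over the members and no called member (0.0681% of all genes). Myh6, Myl7, Tnnt2, Myl4 and Mybpc3 lay between −0.36 and −0.14.

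Some markers of other cells differed between the genotypes in these sums. Of the lists summed here, only the erythroid markers were without overlap at both stages. The 5 erythroid markers summed to 1138 to 1158 CPM in the WT cardiomyocytes and 217 to 1105 in the null at E8.5, and to 211 to 933 and 5.93 to 44.4 at E9.5, where 4 of the 5 had a UMI in null. In hindbrain neural progenitors the same markers were at 959 to 1162 and 305 to 1319 at E8.5 and at 231 to 1306 and 5.48 to 65.5 at E9.5, so the E9.5 difference was not limited to cardiomyocytes. The 3 skeletal muscle factors were at 105 to 807 in WT and 0 to 425 in null at E9.5, and at 0 in FHF 2 and SHF 2. Endothelial markers (25.9 to 57.4 in WT, 24.9 to 41.5 in null) and neural markers (14.4 to 34.5 and 25.8 to 53.3) overlapped, and so did endodermal markers (5.39 to 13.6 and 10.8 to 29.6) and mesothelial markers (42.8 to 110 and 56.7 to 107), all at E9.5. At E8.5 neural markers were at 26.9 to 51.8 in WT and 6.75 to 24.8 in null, mesothelial markers at 18 to 24 in WT and 28.9 to 37.3 in null, and endodermal markers at 8.98 to 22.2 in WT and 8.07 to 8.68 in null, all without overlap. Endothelial markers (16.1 to 25.4 and 14.9 to 16.4) overlapped at that stage. Their part in the members' values was not tested beyond the sums without the cells that held skeletal muscle factors.

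No difference of the genotype effect between E8.5 and E9.5 was called, in the members or in any gene (0% of 9068 genes, 221 genes at an unadjusted p under 0.05 in edgeR, none of them a member, and no member called by DESeq2). Myl2 had the largest interaction, 1.4 (interval −1.98 to 4.78), and the others lay between −0.25 and 0.42. In whole E9.5 libraries, where every cell is counted, 0.573% of 14828 genes were called and none of the members, none of which had an unadjusted p under 0.05. Myl2 was 0.651, 0.402, 0.531 and 2.55 CPM in WT A to D and 2.20, 3.38, 0.697 and 3.88 in null A to D, at 1.26 (interval −0.29 to 2.80, edgeR adjusted p = 0.602, and no member called by DESeq2). The members together were 246, 179, 130 and 305 CPM in WT and 253, 237, 173 and 215 in null. In such whole-library sums, fewer cardiomyocytes and less sarcomere RNA per cardiomyocyte cannot be told apart. Cardiomyocytes were 0.714%, 0.909%, 1.10% and 1.47% of the WT cells and 1.20%, 1.78%, 1.26% and 1.29% of the null cells, with means of 1.05% ± 0.321 and 1.38% ± 0.270 (exact permutation test, p = 0.20). Without the cells with skeletal muscle factors the means were 0.912% and 1.29% (exact permutation test, p = 0.171).

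Between E8.5 and E9.5 in WT cardiomyocytes, no member passed both thresholds, although 1.52% of 8508 genes did. The median of the members was −0.80 beside 0.03 for all genes, and 9 of the 10 were lower at E9.5, 2 of them at an unadjusted p under 0.05. The 4 mesothelial markers moved with the stage, from 18 to 24 CPM summed at E8.5 to 42.8 to 110 at E9.5, and the 3 of them tested had a median of 2.21, with none called. Erythroid markers were at 1138 to 1158 CPM at E8.5 and 211 to 933 at E9.5, and endothelial markers at 16.1 to 25.4 and 25.9 to 57.4, neither with overlap. The skeletal muscle factors were at 0 to 0.871 and 105 to 807, and neural and endodermal markers overlapped. The part of these markers in the members' values was not tested beyond the sums without the cells with skeletal muscle factors. Tnni1 passed the p threshold with a smaller change, from 1463 and 1352 CPM at E8.5 to 1112, 1156, 831.4 and 919.3 at E9.5, a log2 fold change of −0.66 (SE 0.13, interval −0.94 to −0.38, edgeR adjusted p = 0.016). The stages did not overlap, and the value was −0.64 (edgeR adjusted p = 0.0119) without the cells with skeletal muscle factors, −0.40 within FHF 2 and SHF 2 and 0.02 within FHF 1 and SHF 1. Actc1 went from 7218 and 8681 to between 2054 and 5837, at −1.16 (interval −2.27 to −0.06, edgeR adjusted p = 0.24), or −1.25 (interval −3.46 to 0.95) without the cells with skeletal muscle factors. DESeq2 called Actc1, at −1.17 with an adjusted p of 0.00245, and within FHF 2 and SHF 2 it was −0.67 (interval −0.99 to −0.34, edgeR adjusted p = 0.0267). In FHF 1 and SHF 1 it was −0.09 (interval −1.46 to 1.29) with those cells and −0.78 (interval −2.27 to 0.72) without them. Actc1 and Tnni1 were thus below their E8.5 levels in every E9.5 WT library.

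Myh6 was higher at E9.5 in FHF 2 and SHF 2 and lower in FHF 1 and SHF 1, without passing the test in either. Its CPM at E8.5 over the 4 labels was 562.8 and 707.5, against 1604, 746.8, 51.81 and 717.7 at E9.5, at 0.11, and WT C, the library without FHF 2 or SHF 2 cells, was far below the others. Within FHF 2 and SHF 2 it was 1021 and 1133 at the earlier stage and 3600, 1653 and 1988 at the later, at 1.01 (interval 0.24 to 1.78, edgeR adjusted p = 0.189), with every E9.5 library above both E8.5 libraries. This pair mixes labels with different Myh6 levels. FHF 2 and SHF 2 cells were 9 and 10 in WT A and 36 and 27 in WT B at E8.5. At E9.5 they were 2 and 6 in WT A, 5 and 4 in WT B and 9 and 12 in WT D. The part of this mix in the stage difference was not tested. In FHF 1 and SHF 1 the fold change of Myh6 was −0.88 (interval −3.10 to 1.34), and −0.58 without the cells with skeletal muscle factors. Myh7, at −0.78, was called once the E9.5 library WT A was left out, at −1.25 (edgeR adjusted p = 0.0446). Myl2 was 288.1 and 297.1 at E8.5 and at most 131 at E9.5, at −2.62 (interval −5.37 to 0.14). In thinned cells, a Myl2 UMI was found in 25.6% of SHF 2 and 55.2% of FHF 2 cells at E9.5, against 42.1% and 87.0% at E8.5. The median of the members within FHF 2 and SHF 2 was −0.26, with 8 lower, beside 1.44% of genes called, and in FHF 1 and SHF 1 it was −0.35, beside 1.1%. No member was called in either. Scaling to library totals moved the median of all genes to 0.16 and the called genes from 76 higher and 53 lower to 128 higher and 33 lower, and no member was then called.

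At E9.5 the means of the heavy chains over FHF 2 and SHF 2 were in the order of E8.5. Myh6 was 3329 ± 709 CPM in SHF 2 (n = 4) and 507 ± 207 in FHF 2 (n = 3), and Myh7 was 2187 ± 222 in FHF 2 and 816 ± 822 in SHF 2, where WT A, at 2023, lay within the 1931 to 2328 of FHF 2 and the other 3 libraries at 263 to 642. Myl7 was again higher in SHF 2, at 16042 ± 2437, than in FHF 2, at 11296 ± 1604. Myl2 was 354 ± 319 in FHF 2 and 165 ± 128 in SHF 2 over libraries with at least 5 such cells, where the libraries overlapped. Pooled over all 29 FHF 2 and 43 SHF 2 cells, libraries with fewer included, Myl2 was 753 and 147 CPM. Myh6 was 1073 and 3518 CPM in the same pools, and Myh7 2101 and 668. The 22 FHF 2 cells of the libraries averaged above held 363 of the 1096 Myh6 UMIs of FHF 2, so most lay in the cells left out. Myl3 was 1920 ± 1190 and 1854 ± 361. Tnni1 was 1994 ± 66.6 and 1851 ± 254.

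Other genes of the contractile apparatus and its control, 55 in 4 lists, gave few calls. The lists hold 23 sarcomere and Z-disc genes, 11 skeletal and smooth muscle paralogues, 9 genes of calcium handling and 12 heart regulators. Between genotypes, 0 of 51 tested were called at E8.5, 0 of 49 at E9.5 and 0 of 52 in the interaction. The sarcomere and Z-disc list went with the members: at E8.5 its median was −0.17 over the 4 labels, with 18 of 22 below 0, and 0.05 within FHF 2 and SHF 2, with 14 above 0. At E9.5 these were −0.28, with 16 below 0, and −0.01, with 11 on each side. The calcium list was at −0.25 and 0.06 at E9.5, and the regulators at −0.19 and −0.08. The skeletal and smooth muscle paralogues had a median of −0.33 at E8.5, with 8 of 10 below 0, and −0.73 at E9.5, with 10 of 11 below 0, which was −0.21 without the cells with skeletal muscle factors. Within FHF 2 and SHF 2 that list was at −0.17 and −0.19.

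Between the stages in WT, 1 of 52 was called, beside 1.52% of all 8508 genes tested. It was Irx4, a homeobox factor of the ventricle. Its CPM at E8.5 was 10.5 and 27.4, against 0, 0, 0 and 1.30 at E9.5, that is 77 UMIs in 3631571 and 2 in 3660110, a ratio of 38.8 (exact 95% interval 10.4 to 326, counting error only). The fitted fold change, −5.12 (edgeR adjusted p = 0.00158), depends on the prior count. The null libraries held Irx4 at 16.1 and 17.4 CPM at E8.5, against 3.78, 5.08, 0 and 2.17 at E9.5. In FHF 2 and SHF 2, Nr2f2, which encodes the atrial regulator COUP-TFII, rose from 37.7 and 41.6 CPM to 169, 226 and 151, at 1.97 (edgeR adjusted p = 0.000137), where over the 4 labels it was 0.74 and not called. Mylpf, the fast skeletal regulatory light chain, fell there from 121 and 122 to 55.2, 24.6 and 56 CPM, at −1.46 (edgeR adjusted p = 0.00343), and over the 4 labels, cells with skeletal muscle factors included, it was 1.57 and not called, but −1.86 and called (edgeR adjusted p = 0.00232) without those cells. Des, the muscle intermediate filament desmin, was called in FHF 1 and SHF 1 alone, from 55.0 and 57.0 CPM to between 180 and 344, at 2.09 (edgeR adjusted p = 0.0103), and not once the cells with skeletal muscle factors were left out. Without those cells, Isl1, a factor of the second heart field, was called over the 4 labels at 1.17 and Tnni2, fast skeletal troponin I, at −1.36 (edgeR adjusted p = 0.01 and 0.0216), as was Upk3b, a mesothelial marker, at 6.46 (edgeR adjusted p = 0.0261). Nr2f2, Mylpf, Des, Isl1, Tnni2 and Upk3b were singled out after their values were seen.

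In 64 fits of single cell types, 151 tests fell on a member, 21 had an unadjusted p under 0.05 and 1 was called, beside 0.111% of 558150 gene tests. The call was Myl7 in paraxial mesoderm at E7.5, where 0.168% of 8920 genes were called. Myl7 was 169 and 222 CPM in WT A and B, from 31 and 96 cells, and 86.0 and 84.5 in null A and B, from 177 and 24 cells. The null levels lay below the WT levels, at −1.19 (SE 0.15, interval −1.50 to −0.88, edgeR adjusted p = 0.00102). Among cells that mapped to E7.5 of the atlas only, the levels were 190 and 251 in WT and 82.8 and 109 in null. The part of embryo size, by which the study classed its E7.5 embryos, was not tested. Without WT B the fold change was −0.94, under the threshold of 1, with an edgeR adjusted p of 0.00144; this leaves 1 WT library of 31 cells, assumed to vary like the null libraries. After thinning, 54.8% and 65.6% of WT and 39.5% and 50% of null cells held a Myl7 UMI.

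The 6 other E7.5 types in which Myl7 was tested did not show this. Their fold changes lay between 0.01 and 0.55, and the smallest adjusted p was 0.996 (edgeR). In the cardiopharyngeal progenitors of the second heart field, too few for a test, Myl7 was 265 and 248 CPM in WT and 193 and 173 in null. In fits over types with more than 50 cells per library, which left 17 fits and 48 tests on members, none was called, but E7.5 paraxial mesoderm has too few cells to be among them. DESeq2 called 3 of the tests, the added ones being Mybpc3 in an erythroid type at E8.5 (edgeR −1.71, adjusted p = 0.0580) and Actc1 in posterior somitic tissues at E9.5 (edgeR −1.42, adjusted p = 0.487). Actc1 was below 0 in 28 of its 35 tests and Myl7 above 0 in 28 of its 44, tests that share libraries. Tnni1 was above 0 in 12 and below 0 in 15, Tnnt2 in 6 and 10, and Myl4 in 7 and 8. The share of all genes on each side of 0 was not counted, so no common direction can be read from these counts.

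**Figure D5:**
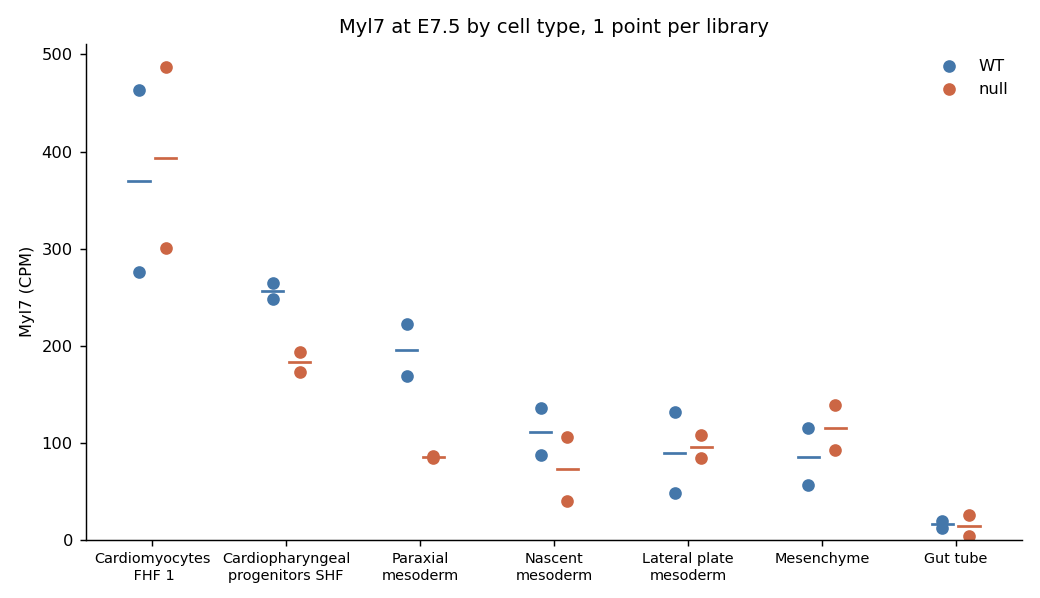
CPM of Myl7 at E7.5 in 7 cell types, with 1 point per library (blue WT, red null) and bars at the means. Cardiomyocytes FHF 1 and the cardiopharyngeal progenitors of the second heart field are among them and had too few cells for a test. In paraxial mesoderm the WT libraries are at 169 and 222 and the null libraries at 86.0 and 84.5.

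Genes whose levels followed the mean of the members were ranked by Pearson's correlation of log2(CPM + 1), as a description without a test, over 87 WT profiles of a type and stage that share libraries. A profile needed more than 15 cells in at least 2 WT libraries of the stage. No cardiomyocyte label met this, so these profiles describe the low levels outside the cardiomyocytes, and the most alike were 1010001N08Rik (0.76), Gata6 (0.70), Unc45b (0.69), Gata5 (0.68), Acta2 (0.67), Popdc2 (0.65), Carmn (0.65), Wnt11 (0.64), Tcf21 (0.63) and Zfpm2 (0.63). Gata6 and Gata5 encode transcription factors of heart and endoderm, and Unc45b a chaperone of myosin. With sums of at least 5 cells, 147 profiles of which 9 were cardiomyocytes, the most alike were Csrp3 (0.94), Hspb7 (0.94), Trim55 (0.93), Ankrd1 (0.92) and Smpx (0.92), then Klhl30, Ldb3, Gm45123, Ttn and Xirp1 at 0.91. Among the members themselves outside the cardiomyocytes, Myl4 (0.78) and Tnnt2 (0.75) followed the mean of the others, and Myh7 (0.06) and Myh6 (−0.11) did not.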

How the data were processed

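The authors ran Cell Ranger on 10x 3′ v3 reads against mm10 with the GRCm38.p5 annotation and a tdTomato sequence, and deposited raw UMI counts per gene and cell, which carry no normalization. Their table of cells also holds the deposited mitochondrial percent per cell, a doublet call (scds) and cell types transferred from an atlas of gastrulation with a mapping score, deposited as a fraction. The authors had filtered cells on depth, genes detected, mitochondrial and ribosomal share. Of 192657 barcodes listed, 41832 are in the matrix and 38437 were singlets. WT-sorted cells with a tdTomato UMI (596, 9 of them cardiomyocytes) were left out here. The mitochondrial percent of cardiomyocytes had library medians of 0.555% to 1.94%, and their UMIs per cell 17351 to 56629. A library held 20682659 to 138613245 UMIs.

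Counts were summed per library and type, with at least 5 cells per sum of cardiomyocytes and more than 15 per sum of a single type. Of 29453 genes, 8194 were first left out. These were predicted, mitochondrial, ribosomal protein, haemoglobin, X-inactivation and chromosome Y genes and the tdTomato sequence. The sums were fitted with edgeR 4.0.16 in R 4.3.3 (filterByExpr, TMM, robust quasi-likelihood) over all other genes, with adjustment by Benjamini-Hochberg. Calls needed an adjusted p under 0.05 and a log2 fold change past 1 in either direction, and fold changes are null over WT, or E9.5 over E8.5. Fits between genotypes were without pairing, since the library names carry no pool. The study itself used a term for the embryo pool, where each pool gave 1 null and 1 WT sample. The sample labels number replicates alike in both genotypes, but the library names could not be matched to these labels. The part of the embryo pool in the differences between genotypes was therefore not tested. DESeq2 1.42.0, library totals, no filter and single libraries left out were alternatives. Pairs of the 4 labels alone, sums without cells with skeletal muscle factors or shared barcodes, and likeness over sums of at least 5 cells were chosen after seeing the data. Detection of the members was compared after thinning to 10000 UMIs, and other genes were counted without thinning. Intervals of fold changes come from the edgeR fit and include the spread between libraries. Intervals of detection and of counts, and floors, cover counting error only. Shares were tested with exact permutations over libraries (scipy 1.17.1, two-sided). The steps were checked on simulated data. The named genes are the members, the genes of the fixed lists called over the 4 labels and, by likeness to the members' mean, the top genes with 10 CPM in at least 1 profile. The members and lists were chosen with earlier results of these data known.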

Additional observations from a re-analysis of the deposited data

Results flagged for a closer look

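Dixon's criterion marked 7 of 72 groups of 4 libraries, where chance marks about 1 in 20. Groups of 4 libraries exist only at E9.5. In FHF 1 and SHF 1, Myl2 was 10.5 CPM in null C, against 2.02 to 2.51 in the other null libraries, and Myl7 was 563 CPM in WT D, against 1365 to 1513 in the other WT libraries. In whole libraries, Myl2 was 2.55 CPM in WT D, against 0.402 to 0.651 in the other WT libraries, and Actc1 was 32.2 CPM in null C, against 48.5 to 51.4 in the other null libraries. The share of Myh7 among the heavy chains was 83.6% in WT C, the library without FHF 2 or SHF 2 cells, against 36.3% to 40.1% in the other WT libraries. The share of Myl2 in Myl2 and Myl7 was 2.45% in WT D, against 0.174% to 0.390%. Cardiomyocytes were 1.78% of the cells of null B, against 1.20% to 1.29% of the other null libraries. WT C and WT D are the libraries that shared 292 barcodes, and with shared barcodes left out their Myh7 share was 83.5% in WT C and their Myl2 share 2.06% in WT D.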

How the results depend on the processing

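No paired analysis was possible because the library names carry the stage and the sorting gate but no embryo pool or replicate number. Of 701 alternative values for the members' fold changes, 635 kept the direction and the side of the threshold and 63 turned the direction, 45 of them with a single library left out. Within FHF 2 and SHF 2 alone, the direction turned at E8.5 for Myh6 (0.071), Myl3 (0.24), Myl4 (0.061), Myl7 (0.0056), Tnnt2 (0.091) and Mybpc3 (0.035), at E9.5 for Myl4 (0.20), Tnni1 (0.033) and Mybpc3 (0.11), and between the WT stages for Mybpc3 (0.063) and Mylpf (−1.46). In FHF 1 and SHF 1 alone it turned for Mybpc3 at E9.5 (0.0013) and, between the WT stages, for Myh6 (−0.88) and Tnni1 (0.017), and without cells with skeletal muscle factors for Myh6 (−0.58) and Myh7 (0.0025). Leaving out those cells turned the interaction of Actc1 (0.012) and Mybpc3 (−0.024) and the stage difference of Mylpf (−1.86), and DESeq2 turned the interaction of Mybpc3 (−0.0053). Myl2 as a mean share over cells was lower in null by 0.773 percentage points (−0.773, exact permutation p = 0.771). The cause of these turns was not tested.

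DESeq2 called 1 member between the WT stages and 3 members in single types, and sums of over 50 cells, which leave out E7.5 paraxial mesoderm, gave 0. Leaving out single libraries gave 0 to 1 called members between the WT stages and 0 in the comparisons of genotypes in cardiomyocytes and whole libraries, and Myl7 in E7.5 paraxial mesoderm was called in 3 of 4 such fits (−1.36 to −0.94 over all 4). It moved the genes called between the WT stages from 12 (without E8.5 WT B) to 188 (without E9.5 WT C). At E8.5 this leaves 1 library in an arm, assumed to vary like the others. With single libraries left out the direction turned in the interaction for Actc1 (−0.33 to 0.12), Mybpc3 (−0.27 to 0.47), Myh6 (−0.51 to 0.50), Myh7 (−0.73 to 0.21), Myl4 (−0.30 to 0.19), Myl7 (−0.43 to 0.23), Tnni1 (−0.31 to 0.035) and Tnnt2 (−0.45 to 0.059), in whole E9.5 libraries for Actc1 (−0.38 to 0.10), Mybpc3 (−0.36 to 0.058), Myh6 (−0.29 to 0.47), Myl7 (−0.10 to 0.30) and Tnnt2 (−0.11 to 0.38), at E9.5 for Mybpc3 (−0.46 to 0.28), Myh6 (−0.75 to 0.26), Myl4 (−0.49 to 0.0056) and Myl7 (−0.65 to 0.0053), between the WT stages for Myh6 (−0.51 to 0.50), at E8.5 for Myh6 (−0.51 to 0.00078), Myl2 (−0.26 to 0.45) and Myl3 (−0.13 to 0.076). Irx4 at E9.5 rests on 2 UMIs in WT, and Myl2 at 2.467 CPM in WT C goes with the absence of FHF 2 and SHF 2 cells there. Irx4 was called under each alternative in which it was tested, at −5.81 to −4.37. It was under the filter without E8.5 WT B and without E9.5 WT D.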
